A study of Homo sapiens with 4 samples.

Results

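The actin cytoskeleton was followed, through 50 of its genes, in the conversion of BLaER1 into macrophage-like cells. Members were the rows of the deposited table whose symbol was on a fixed list of actins, actin binders, Arp2/3 subunits, WASP and WAVE proteins, cross-linkers, myosins, ERM proteins and podosome components. All 50 listed symbols were found once each among 58302 gene rows. BLaER1 is an established human line from a B cell leukaemia. It carries the myeloid transcription factor C/EBPα fused to an oestrogen receptor domain, so that oestradiol switches the factor on, and cells of both stages carry this fusion. Total RNA was sequenced from 2 libraries of differentiated cells, which had been given 100 nM oestradiol together with IL-3 and M-CSF over 5 to 6 days, and from 2 libraries of undifferentiated cells, for which the labels give culture in RPMI with serum. A dose of 10 ng/ml is stated before IL-3 and not repeated for M-CSF. All cells belong to this single line, and separate cultures are not mentioned in the labels, so the p-values hold for the spread among these 4 libraries, which may be technical.

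Actin filaments form from monomers that profilin and thymosins hold in solution, and the Arp2/3 complex starts new filaments as branches on old ones when WASP or WAVE proteins activate it. Capping proteins stop filament growth, cofilin and gelsolin cut filaments, and Ena/VASP proteins extend them. Macrophages are known for podosomes, adhesion structures with an Arp2/3-dependent actin core and a surrounding ring that contains vinculin, talin, paxillin and zyxin. B cell precursors grow in suspension or in loose contact with stroma.

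The deposited values are TPM, which correct for gene length and have the same sum in each library. How deeply each library was sequenced is unknown, and no counting error can be given. Protein-coding genes held 12.2% and 13.5% of all TPM in differentiated libraries, against 23.0% and 15.6% in undifferentiated libraries. Results were therefore also computed after rescaling over protein-coding genes alone. Structural RNAs, such as small nuclear and nucleolar RNAs, were counted together with all mitochondrial genome transcripts. They held 70.7% and 66.4% of all TPM in differentiated libraries, against 67.2% and 71.7% in undifferentiated libraries. The 8 B lineage markers summed to 17.0 and 16.0 TPM in differentiated libraries, against 197 and 135 TPM in undifferentiated libraries, and all 8 fell (limma, adjusted p below 0.05). The 8 macrophage and monocyte markers summed to 669 and 740 TPM in differentiated libraries, against 7.96 and 6.22 TPM in undifferentiated libraries, and all 8 rose. T cell, NK cell, neutrophil and erythroid markers summed to at most 1.72 TPM in any library. The 4 fibroblast markers summed to 1.15 and 0.47 TPM in differentiated libraries, against 5.18 and 2.25 TPM in undifferentiated libraries, of which PDGFRB held 4.99 and 2.24 TPM. Of the 3 megakaryocyte markers PPBP had 22.6 and 23.7 TPM in differentiated libraries and was listed at 0.09 and 0 TPM in undifferentiated libraries, while PF4 was at most 0.14 TPM and ITGA2B was listed at 0 TPM in both differentiated libraries. In bulk RNA, fewer cells that use a gene and less of its RNA per cell cannot be told apart.

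The stages were compared with limma on the log2(TPM + 1) scale for the 10180 genes that reached 1 TPM in 2 or more libraries. A gene counted as called when its p, adjusted over all of them by the Benjamini-Hochberg method, was below 0.05. Of the 50 members, 20 were called higher and 7 lower in differentiated cells, 22 were not called, and ABI3 lay below the filter. Over all genes tested, 41.4% were called, 18.6% higher and 22.8% lower, and over the protein-coding genes tested 17.4% were called higher and 23.0% lower. Of the members tested 40.8% were called higher and 14.3% lower. The median log2 difference was 0.60 over the 49 members tested and -0.14 over all genes tested. MYO1F, MYO1G and MYO1E reached 1 TPM in the differentiated libraries alone, and ENAH and VCL in the undifferentiated libraries alone, so these 5 could pass the filter only by differing. All 5 are among the calls, which leaves 17 other members called higher and 5 lower. The shares over all genes still include genes of this kind, so they are not a like comparison for these counts. For 37 of the 50 members the stages did not overlap, 27 with both differentiated libraries above and 10 with both below. The same held for 70.0% of all genes tested, of which 31.0% lay above and 39.0% below. After rescaling over protein-coding genes 32 members were called higher and 6 lower, beside 34.3% and 18.0% of the 11945 genes then tested. That rescaling moved the median of all genes to 0.37 and that of the members to 1.17. Median-of-ratios scaling called 25 members higher and 7 lower, beside 27.2% and 28.1% of all genes, and quantile normalization 30 and 7, beside 25.4% and 29.4%. Rescaling without structural RNAs called 24 members higher and 7 lower, with 5434 of 12906 genes called in either direction. The medians were then 0.57 for the members and -0.15 for all genes.

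**Figure D1:**
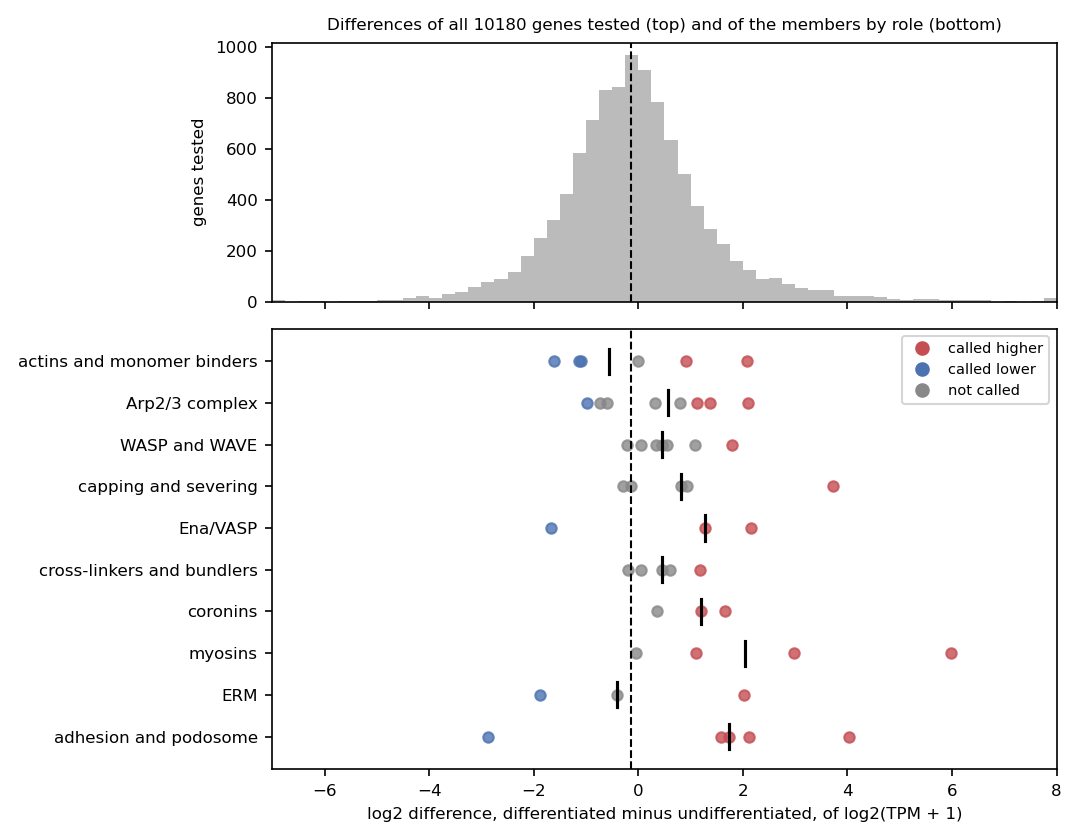
Histogram of the log2 difference, differentiated minus undifferentiated, for all 10180 genes tested (top, values beyond the axis collected in the end bins), and the 49 members tested by role (bottom; points are genes, short black lines are role medians, the dashed line is the median of all genes, -0.14). Myosins and adhesion genes reach furthest to the right, up to 5.97 for MYO1F, and VCL lies furthest to the left at -2.87.

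Calls were fewer among all genes, as among the members, in the fits without a differentiated library. In these fits the spread comes from the undifferentiated pair alone. The members' median log2 difference was 0.88 without differentiated replicate 1 and 0.45 without differentiated replicate 2. Without differentiated replicate 1 or 2, 22 of the 27 called members lost their call, with adjusted p between 0.0526 and 0.452 in these fits. Without a filter on low values 19 lost it, and against a log2 fold change of 1, 20 lost it. MYO1F, MYO1E, MYO1G, GSN and ZYX were called in each of the 4 fits that left out a library. ARPC2 and EVL also lost their call without undifferentiated replicate 2 (adjusted p = 0.0555 and 0.0871), and ACTB without undifferentiated replicate 1 (adjusted p = 0.0541). No called member changed sign in any of the 14 alternatives tried, but most of these could not change one. Filters, tests and the replicate block leave the difference as it is. The stages did not overlap for any called member, so another pseudocount or a left-out library keeps the sign. Only the other scalings could have turned it. Undifferentiated replicate 1 lay above replicate 2 for 45 of the 50 members, and its protein-coding share was also the larger of both. This order is not particular to the members, as it also held for 96 of the 111 other actin regulators described below.

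The actins exchanged rank. ACTB (ENSG00000075624), which encodes β-actin, had 355 and 389 TPM in differentiated libraries, against 181 and 217 TPM in undifferentiated libraries. ACTG1 (ENSG00000184009), which encodes the nearly identical γ-actin, had 216 and 237 TPM in differentiated libraries, against 536 and 462 TPM in undifferentiated libraries. Neither gene overlapped between stages, and they moved in opposite directions. ACTB rose by a log2 difference of 0.91 ± 0.33 (SE, limma adjusted p = 0.0403), a call that median-of-ratios scaling did not keep, and ACTG1 changed by -1.13 ± 0.32 (adjusted p = 0.0125). ACTG1 made up 37.8% and 37.9% of the TPM of both actins in differentiated libraries, against 74.8% and 68.1% in undifferentiated libraries. Such a share is a ratio within a library and does not depend on how libraries are scaled. With 2 libraries a stage the smallest two-sided p of an exact permutation test is 0.33, so shares are descriptions. The summed level of both actins was 571 and 627 TPM in differentiated libraries, against 717 and 679 TPM in undifferentiated libraries. As a part of protein-coding TPM the order was the other way, with 0.468% and 0.465% in differentiated libraries, against 0.312% and 0.435% in undifferentiated libraries.

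Serum response factor binds the CArG box, a run of A and T between a CC and a GG, and is known for control of actin genes. The 300-base promoter windows of RefSeq (GRCh38.p14, 250 bases before to 50 after a start) were searched for it on both strands. Of the 50 members 44 had a window, and 4 of these genes (9.09%) held a box, beside 1.60% of the 27305 genes in the table. They were ACTG1, called lower, FLNA and MYO1E, called higher, and ACTN1, not called. Windows were present for 17 of the 20 members called higher, all 7 called lower and 20 of the 22 not called. A member that is not listed may thus have had no window, which says nothing about a box. Some genes have several windows. Counted by window, a box was in 4 of 71 (5.63%) for the members, beside 1.29% of all 35116. A match is a description of these letters and not a bound site. The windows of the 3 called genes are printed 5′ to 3′ with the box in capitals, because these genes each hold a box and moved in different directions. They lie on the minus strand at chr17:81512750-81513049, chrX:154374585-154374884 and chr15:59372822-59373121, in this order.
ACTG1: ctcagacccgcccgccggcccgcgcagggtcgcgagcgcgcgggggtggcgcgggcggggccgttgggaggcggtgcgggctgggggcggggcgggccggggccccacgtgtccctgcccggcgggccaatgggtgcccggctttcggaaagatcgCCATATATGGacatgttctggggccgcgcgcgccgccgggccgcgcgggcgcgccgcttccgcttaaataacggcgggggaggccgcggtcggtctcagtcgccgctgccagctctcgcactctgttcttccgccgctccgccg
FLNA: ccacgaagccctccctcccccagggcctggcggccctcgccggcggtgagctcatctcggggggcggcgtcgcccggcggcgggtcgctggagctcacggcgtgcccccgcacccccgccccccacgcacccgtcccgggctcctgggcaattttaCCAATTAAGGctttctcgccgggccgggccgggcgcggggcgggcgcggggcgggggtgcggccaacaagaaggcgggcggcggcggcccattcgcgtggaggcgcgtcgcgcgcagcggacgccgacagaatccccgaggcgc
MYO1E: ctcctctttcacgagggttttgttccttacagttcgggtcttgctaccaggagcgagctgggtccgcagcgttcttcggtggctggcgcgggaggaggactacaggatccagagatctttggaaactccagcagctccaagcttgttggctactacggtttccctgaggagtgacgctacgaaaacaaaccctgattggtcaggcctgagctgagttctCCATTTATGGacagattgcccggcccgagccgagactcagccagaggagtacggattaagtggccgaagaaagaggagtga
The box began 94 bases before the start in ACTG1 and FLNA and 31 bases before it in MYO1E.

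The monomer-binding thymosins also moved apart. TMSB4X (ENSG00000205542), thymosin β4, had 803 and 1010 TPM in differentiated libraries, against 275 and 164 TPM in undifferentiated libraries. TMSB10 (ENSG00000034510), thymosin β10, had 169 and 187 TPM in differentiated libraries, against 570 and 527 TPM in undifferentiated libraries. TMSB4X was thereby the most abundant member after differentiation, at rank 17 and 16 among protein-coding genes against 109 and 130 before it, and TMSB10 the most abundant before it. TMSB4X rose by 2.08 ± 0.35 (adjusted p = 0.000399), and TMSB10 changed by -1.62 ± 0.32 (adjusted p = 0.00126). TMSB10 took 17.4% and 15.6% of the TPM of both thymosins in differentiated libraries, against 67.4% and 76.2% in undifferentiated libraries. Pseudogenes named after TMSB4X were listed with 66.5 and 53.7 TPM in differentiated libraries, against 25.9 and 0.10 TPM in undifferentiated libraries, and how reads were split between the gene and its copies is uncertain. Leaving out differentiated replicate 1 or 2 gave an adjusted p of 0.0526 and 0.0758 for TMSB4X, and 0.0844 and 0.0677 for TMSB10.

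Cofilin, which cuts ageing filaments, was lower and profilin did not separate. CFL1 had 150 and 180 TPM in differentiated libraries, against 390 and 322 TPM in undifferentiated libraries, a log2 difference of -1.10 ± 0.33 (adjusted p = 0.0171, but 0.245 and 0.157 without differentiated replicate 1 or 2). PFN1, which feeds actin monomers to growing ends, had 69.6 and 107 TPM in differentiated libraries, against 139 and 54.6 TPM in undifferentiated libraries. The undifferentiated libraries lay on both sides of the differentiated ones, and the 95% interval of the difference ran from -0.97 to 0.95. Of the 6 actins and monomer binders, 2 rose (33.3%), 3 fell (50%) and 1 was not called, beside 18.6% higher and 22.8% lower of all genes tested.

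**Figure D2:**
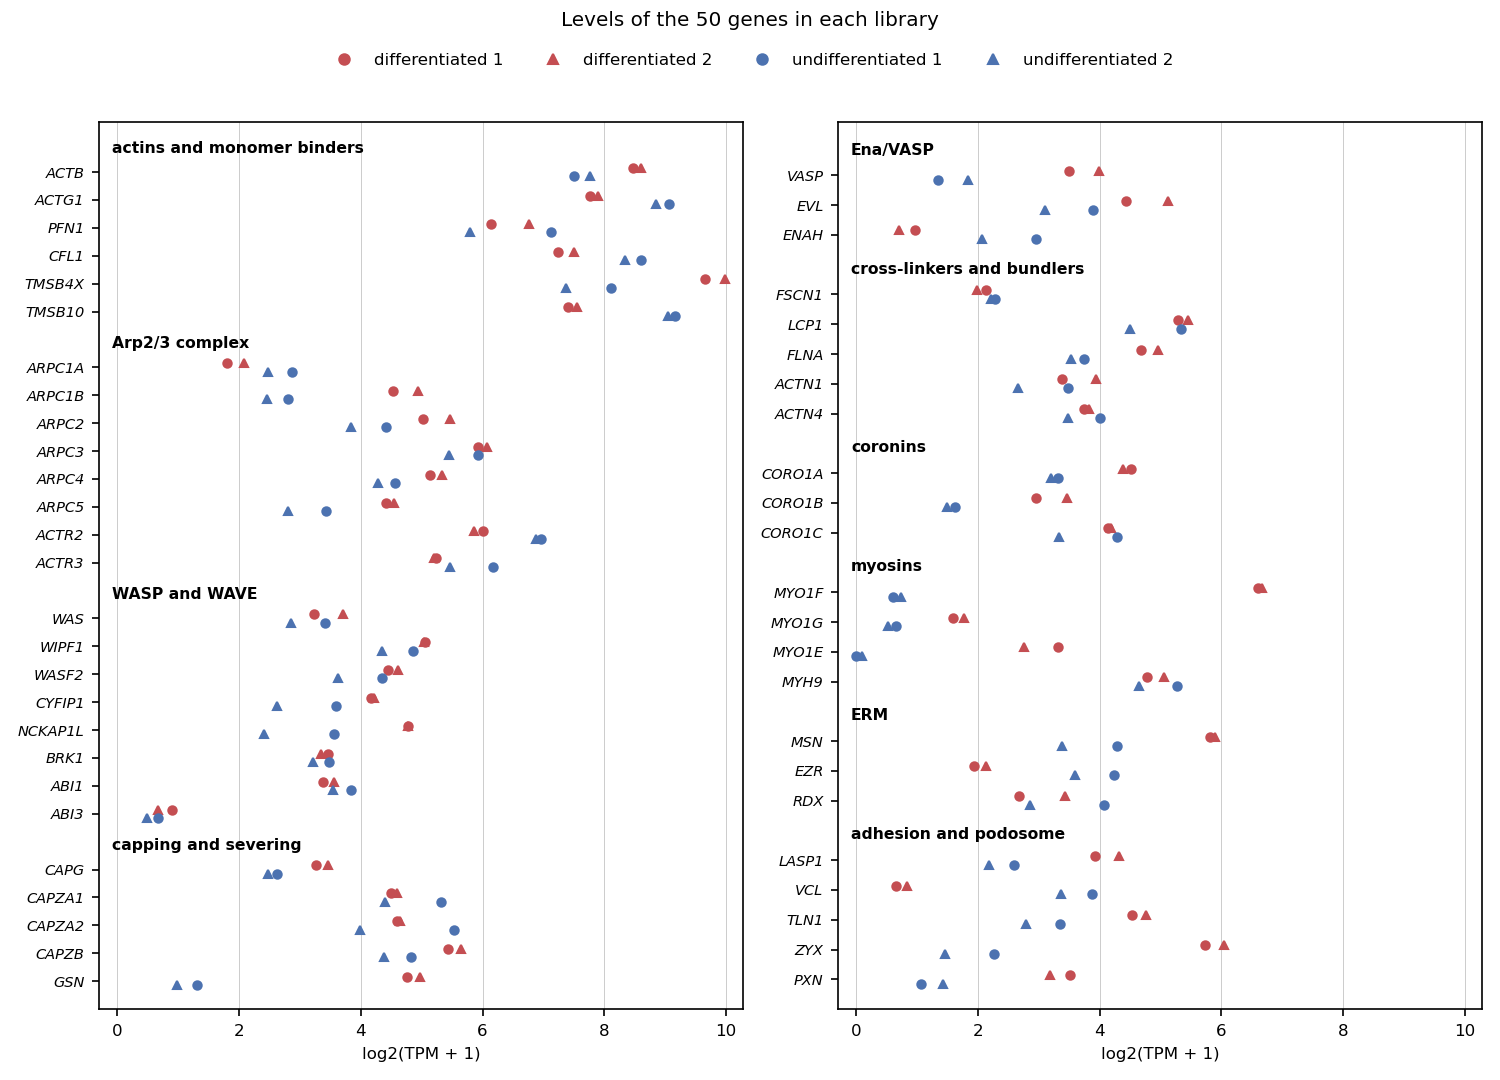
Level of each of the 50 members in each library as log2(TPM + 1), grouped by role (red: differentiated, blue: undifferentiated; circles are replicate 1 and triangles replicate 2). ACTG1, CFL1, TMSB10, ACTR2, ENAH, EZR and VCL, which were called lower, and ARPC1A, ACTR3 and FSCN1, which were not called, have both blue points to the right of the red, whereas MYO1F, GSN and ZYX have both red points far to the right.

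Of the 8 Arp2/3 subunit genes 3 rose (37.5%), 1 fell (12.5%) and 4 were not called, beside 18.6% higher and 22.8% lower of all genes tested. Their summed level overlapped between stages. The 8 genes summed to 271 and 297 TPM in differentiated libraries, against 320 and 249 TPM in undifferentiated libraries. As a part of protein-coding TPM the sum was higher after differentiation, at 0.223% and 0.220% in differentiated libraries, against 0.139% and 0.160% in undifferentiated libraries. The 6 ARPC genes, which encode the subunits that hold the complex together, summed to 171 and 204 TPM in differentiated libraries, against 125 and 89.6 TPM in undifferentiated libraries. The actin-like subunit genes ACTR2 and ACTR3, which form the base of the new filament, summed to 100 and 93.0 TPM in differentiated libraries, against 195 and 160 TPM in undifferentiated libraries. As a part of protein-coding TPM these 2 genes differed less, with 0.0824% and 0.0690% in differentiated libraries, against 0.0847% and 0.102%. The 6 ARPC genes held 0.140% and 0.151% in differentiated libraries, against 0.0543% and 0.0574%.

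ARPC1B (ENSG00000130429), the ARPC1 isoform typical of blood cells, had the largest change of the complex. It had 22.2 and 29.7 TPM in differentiated libraries, against 5.99 and 4.49 TPM in undifferentiated libraries, a log2 difference of 2.11 ± 0.38 (adjusted p = 0.000681, but 0.0822 and 0.13 without differentiated replicate 1 or 2). Its paralog ARPC1A had 2.48 and 3.23 TPM in differentiated libraries, against 6.32 and 4.55 TPM in undifferentiated libraries. The groups of ARPC1A did not overlap, and its log2 difference of -0.73 ± 0.39 was not called (adjusted p = 0.152), although it was called lower after median-of-ratios scaling and quantile normalization. ARPC1B made up 89.9% and 90.2% of the TPM of both ARPC1 genes in differentiated libraries, against 48.7% and 49.7% in undifferentiated libraries. In the undifferentiated libraries both isoforms thus had like levels.

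ARPC5 and ARPC2 were the other subunit genes that rose. ARPC5 had 20.4 and 22.3 TPM in differentiated libraries, against 9.75 and 5.96 TPM in undifferentiated libraries, a log2 difference of 1.37 ± 0.39 (adjusted p = 0.0126). ARPC2 had 31.7 and 43.3 TPM in differentiated libraries, against 20.3 and 13.3 TPM in undifferentiated libraries (1.12 ± 0.39, adjusted p = 0.0333). ACTR2 was the only subunit gene called lower, with 63.7 and 57.4 TPM in differentiated libraries, against 124 and 116 TPM in undifferentiated libraries (-0.98 ± 0.34, adjusted p = 0.0359). This call was lost after median-of-ratios scaling, quantile normalization and rescaling over protein-coding genes, where the difference was -0.42. ACTR3, ARPC3 and ARPC4 were not called, with log2 differences of -0.60, 0.31 and 0.81. ARPC3 and ARPC4 were called higher after rescaling over protein-coding genes, and a read-through row that joins ARPC4 to its neighbour TTLL3 held 7.14 and 7.98 TPM in differentiated libraries, against 5.64 and 6.90 TPM in undifferentiated libraries. The ratio of ARPC5 to ACTR2, which scaling does not touch, was 0.320 and 0.388 in differentiated libraries, against 0.0787 and 0.0513 in undifferentiated libraries. ARPC5 lay higher and ACTR2 lower without overlap, so the stages had to separate in this ratio, which was not planned. Leaving out differentiated replicate 1 or 2 gave an adjusted p of 0.241 and 0.283 for ARPC5, 0.232 and 0.426 for ARPC2, and 0.246 and 0.314 for ACTR2, and ARPC2 was also lost without undifferentiated replicate 2 (0.0555).

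Of the 8 WASP and WAVE genes, which encode activators of the Arp2/3 complex and their partners, 7 were tested. Of these, 1 (14.3%) was called higher and 0 lower, beside 18.6% and 22.8% of all genes tested. NCKAP1L (ENSG00000123338), the blood cell form of the NAP1 subunit of the WAVE complex, was the only one of the 8 that rose, with 26.3 and 26.4 TPM in differentiated libraries, against 10.8 and 4.32 TPM in undifferentiated libraries. Its log2 difference was 1.79 ± 0.43 (adjusted p = 0.00477, but 0.203 and 0.205 without differentiated replicate 1 or 2). CYFIP1, the Rac-binding WAVE subunit, had 16.9 and 17.5 TPM in differentiated libraries, against 11.0 and 5.13 TPM in undifferentiated libraries, and narrowly missed the threshold (1.09 ± 0.42, adjusted p = 0.0516). WASF2, which encodes WAVE2, had 20.8 and 23.6 TPM in differentiated libraries, against 19.4 and 11.3 TPM in undifferentiated libraries. WAS, which encodes the WASP protein of podosome cores, had 8.38 and 12.0 TPM in differentiated libraries, against 9.70 and 6.21 TPM in undifferentiated libraries, with overlap. The 95% interval for WAS ran from -0.53 to 1.19, so a change of 2-fold upward could not be told from none.

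The WASP partner WIPF1 had 32.1 and 31.9 TPM in differentiated libraries, against 27.9 and 19.4 TPM in undifferentiated libraries. The small WAVE subunit gene BRK1 had 10.0 and 9.20 TPM in differentiated libraries, against 10.2 and 8.27 TPM in undifferentiated libraries. ABI1, another WAVE subunit gene, had 9.43 and 10.8 TPM in differentiated libraries, against 13.3 and 10.7 TPM in undifferentiated libraries. None of these was called. ABI3 stayed below 1 TPM in all 4 libraries, with 0.87 and 0.58 TPM in differentiated libraries, against 0.58 and 0.40 TPM in undifferentiated libraries. After rescaling over protein-coding genes WAS, WIPF1, WASF2 and CYFIP1 were called higher as well, and BRK1, ABI1 and ABI3 were not.

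Gelsolin separated from the other capping and severing genes. GSN (ENSG00000148180), which cuts and caps filaments in a calcium-dependent way, had 26.1 and 30.4 TPM in differentiated libraries, against 1.47 and 0.97 TPM in undifferentiated libraries. The ratio of means was 23.2, and the log2 difference of 3.73 ± 0.38 (adjusted p = 1.08e-05) was called in every alternative tried. Its relative CAPG, a macrophage capping protein that does not cut filaments, had 8.58 and 10.0 TPM in differentiated libraries, against 5.16 and 4.55 TPM in undifferentiated libraries. CAPG did not overlap between stages but was not called (0.81 ± 0.38, adjusted p = 0.103). It was called higher after rescaling over protein-coding genes (1.46), median-of-ratios scaling and quantile normalization. GSN made up 75.3% and 75.2% of the TPM of this couple in differentiated libraries, against 22.2% and 17.6% in undifferentiated libraries.

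The CapZ heterodimer caps the fast-growing end of filaments and has an α and a β chain. CAPZB, the β chain gene, had 42.0 and 49.3 TPM in differentiated libraries, against 27.4 and 19.9 TPM in undifferentiated libraries, and missed the threshold (0.93 ± 0.37, adjusted p = 0.0586). Like CAPG, it was called higher after rescaling over protein-coding genes (1.52), median-of-ratios scaling and quantile normalization. The α chain genes CAPZA1 and CAPZA2 overlapped, with 21.7 to 23.9 TPM in differentiated libraries, against 14.8 to 45.1 TPM in undifferentiated libraries. For both genes undifferentiated replicate 1 lay above the differentiated libraries and replicate 2 below them. The ratio of CAPZB to CAPZA1, which was not planned, was 1.94 and 2.12 in differentiated libraries, against 0.708 and 0.995 in undifferentiated libraries.

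Each of the Ena/VASP genes, which encode proteins that lengthen filaments at membranes and adhesions, was called, beside 41.4% of all genes tested. VASP (ENSG00000125753) had 10.3 and 14.9 TPM in differentiated libraries, against 1.54 and 2.58 TPM in undifferentiated libraries (log2 difference 2.15 ± 0.40, adjusted p = 0.000809). EVL, the form known from blood cells, had 20.5 and 33.7 TPM in differentiated libraries, against 13.9 and 7.58 TPM in undifferentiated libraries (1.27 ± 0.42, adjusted p = 0.0267). ENAH, known from neurons and epithelia, went the other way, with 0.95 and 0.63 TPM in differentiated libraries, against 6.71 and 3.20 TPM in undifferentiated libraries (-1.67 ± 0.39, adjusted p = 0.00366). ENAH made up 2.99% and 1.28% of the summed TPM of the trio in differentiated libraries, against 30.3% and 24.0% in undifferentiated libraries. EVL was the most abundant of the trio in every library. Leaving out differentiated replicate 1 or 2 gave an adjusted p of 0.0962 and 0.16 for VASP, 0.192 and 0.452 for EVL, and 0.179 and 0.258 for ENAH, and the EVL call was lost without undifferentiated replicate 2 (0.0871).

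**Figure D3:**
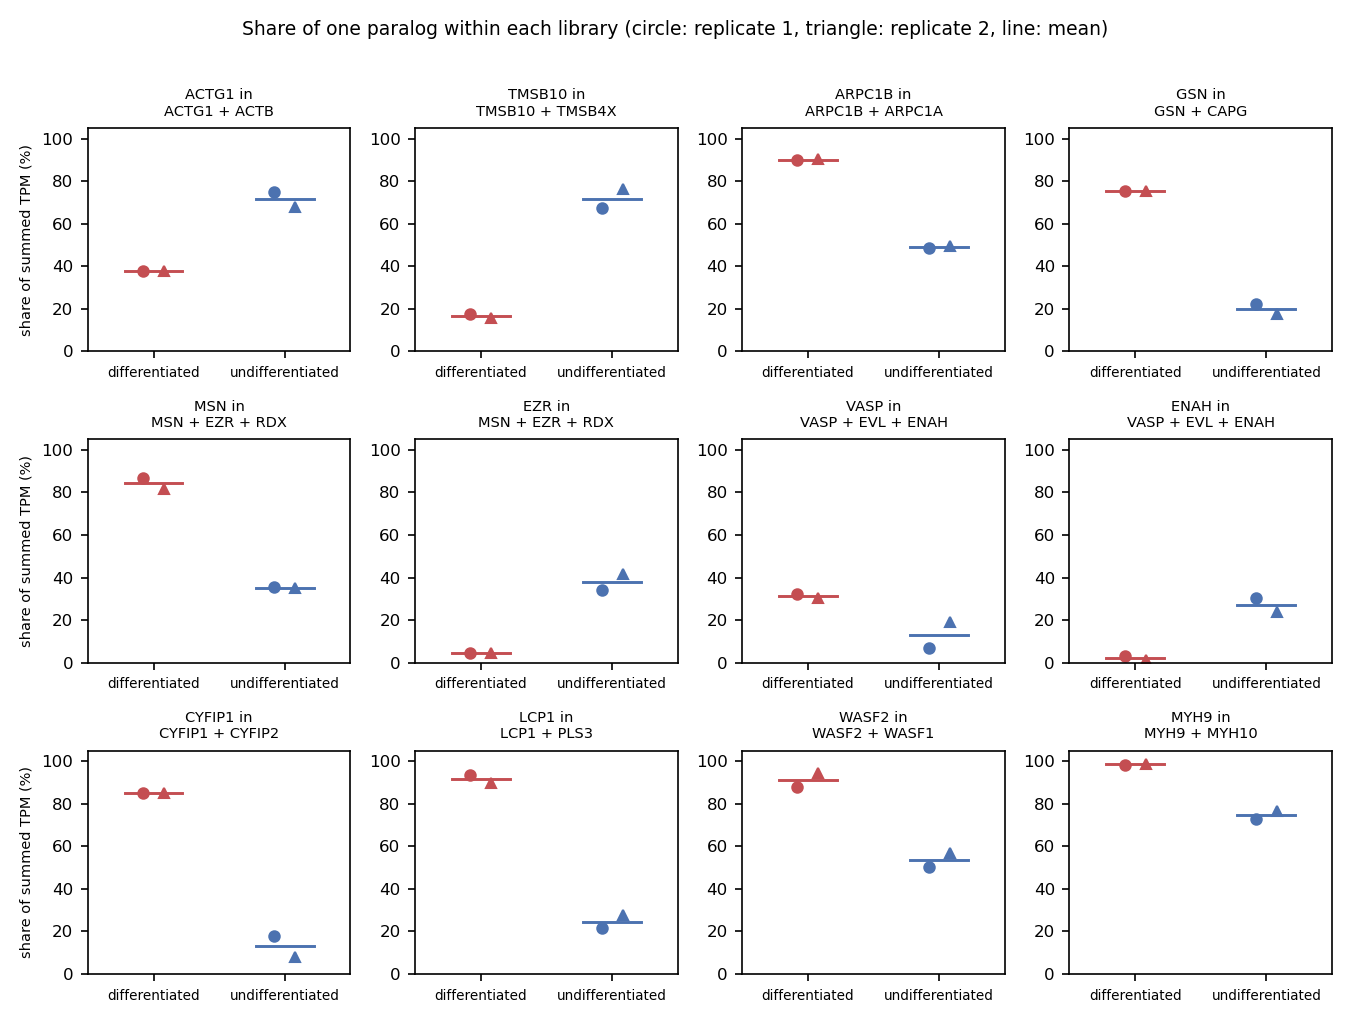
Share of one gene in the summed TPM of its paralogs, in percent, for 12 shares (circles: replicate 1, triangles: replicate 2, lines: means; red: differentiated on the left, blue: undifferentiated on the right). In each panel the stages do not overlap, but the panels are a selection: of the 30 shares computed, 25 did not overlap. The CYFIP1, LCP1, WASF2 and MYH9 shares were added after values had been seen. ARPC1B lies near 90% in differentiated and near 49% in undifferentiated libraries, and CYFIP1 near 85% and at 17.7% and 8.14%.

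Of the 5 cross-linkers and bundlers, filamin A alone was called (20%), beside 41.4% of all genes tested. FLNA (ENSG00000196924), which ties filaments into orthogonal nets, had 24.5 and 30.0 TPM in differentiated libraries, against 12.4 and 10.6 TPM in undifferentiated libraries (log2 difference 1.17 ± 0.37, adjusted p = 0.0219, but 0.233 and 0.348 without differentiated replicate 1 or 2). LCP1, the leukocyte bundling protein L-plastin, had 38.1 and 42.8 TPM in differentiated libraries, against 39.3 and 21.6 TPM in undifferentiated libraries. Fascin, FSCN1, known from filopodia and mature dendritic cells, was low, with 3.37 and 2.96 TPM in differentiated libraries, against 3.86 and 3.66 TPM in undifferentiated libraries. The α-actinin genes ACTN1 and ACTN4 lay between 9.45 and 14.4 TPM in differentiated libraries, against 5.28 to 15.0 TPM in undifferentiated libraries, and both overlapped. LCP1, ACTN1 and ACTN4 were called higher after rescaling over protein-coding genes, and FSCN1 was not.

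Coronins bind filaments and help to take branches apart. CORO1A, the form typical of blood cells, had 21.9 and 19.9 TPM in differentiated libraries, against 8.96 and 8.21 TPM in undifferentiated libraries (log2 difference 1.19 ± 0.37, adjusted p = 0.02). CORO1B had 6.74 and 10.0 TPM in differentiated libraries, against 2.08 and 1.81 TPM in undifferentiated libraries (1.65 ± 0.39, adjusted p = 0.00431). CORO1C had 16.6 and 17.2 TPM in differentiated libraries, against 18.5 and 9.02 TPM in undifferentiated libraries, and was not called. After rescaling over protein-coding genes (0.94) and after quantile normalization it was called higher. Thus the coronins with non-overlapping stages were CORO1A and CORO1B. Their adjusted p without differentiated replicate 1 or 2 was 0.316 and 0.268 for CORO1A, and 0.144 and 0.259 for CORO1B.

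The myosin gene MYO1F showed the largest difference of all members. MYO1F (ENSG00000142347), a class I myosin of leukocytes that links filaments to membranes, had 96.3 and 101 TPM in differentiated libraries, against 0.51 and 0.67 TPM in undifferentiated libraries. The ratio of means was 167, the log2 difference was 5.97 ± 0.37 (adjusted p = 1.56e-07), and its rank among protein-coding genes was 136 and 145 in differentiated libraries, against 9920 and 8487 in undifferentiated libraries. MYO1E, a class I myosin with an SH3 domain, had 8.91 and 5.74 TPM in differentiated libraries and was listed at 0 and 0.07 TPM in undifferentiated libraries (2.98 ± 0.34, adjusted p = 2.4e-05). Both calls held in every alternative tried. MYO1G, a class I myosin of lymphocytes, had 2.02 and 2.39 TPM in differentiated libraries, against 0.57 and 0.43 TPM in undifferentiated libraries (1.09 ± 0.26, adjusted p = 0.00459). On a scale of TPM + 1 these differences understate the change of genes near 0.

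MYH9, the heavy chain of non-muscle myosin IIA, which contracts filaments, was already abundant. It had 26.4 and 32.2 TPM in differentiated libraries, against 37.4 and 23.9 TPM in undifferentiated libraries, with a 95% interval of the log2 difference from -0.86 to 0.79. It was not called after rescaling over protein-coding genes either.

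ERM proteins tie filaments to the cell membrane, and moesin and ezrin moved in opposite directions. MSN (ENSG00000147065), moesin, had 54.9 and 58.7 TPM in differentiated libraries, against 18.4 and 9.36 TPM in undifferentiated libraries (log2 difference 2.03 ± 0.40, adjusted p = 0.00122). EZR (ENSG00000092820), ezrin, had 2.84 and 3.37 TPM in differentiated libraries, against 17.8 and 11.1 TPM in undifferentiated libraries (-1.88 ± 0.40, adjusted p = 0.00198). RDX, radixin, had 5.35 and 9.77 TPM in differentiated libraries, against 15.8 and 6.23 TPM in undifferentiated libraries, and was not called. Moesin made up 87.0% and 81.7% of the summed TPM of the trio in differentiated libraries, against 35.4% and 35.1% in undifferentiated libraries. Ezrin made up 4.50% and 4.69% in differentiated libraries, against 34.2% and 41.5% in undifferentiated libraries. Radixin made up 8.48% and 13.6% in differentiated libraries, against 30.4% and 23.4% in undifferentiated libraries. Leaving out differentiated replicate 1 or 2 gave an adjusted p of 0.115 and 0.125 for MSN, and 0.164 and 0.133 for EZR.

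Of the 5 adhesion and podosome genes, 4 were called higher and 1 lower, beside 18.6% and 22.8% of all genes tested, and of these calls only that of ZYX held without differentiated replicate 1 or 2. ZYX (ENSG00000159840), zyxin, a LIM protein of adhesions, had 52.0 and 64.9 TPM in differentiated libraries, against 3.78 and 1.76 TPM in undifferentiated libraries (log2 difference 4.02 ± 0.40, adjusted p = 9.17e-06), and was called in every alternative tried. PXN, the adhesion scaffold paxillin, had 10.4 and 8.11 TPM in differentiated libraries, against 1.08 and 1.69 TPM in undifferentiated libraries (2.11 ± 0.39, adjusted p = 0.000762). TLN1, talin, which binds and activates integrins, had 22.1 and 26.1 TPM in differentiated libraries, against 9.17 and 5.93 TPM in undifferentiated libraries (1.58 ± 0.39, adjusted p = 0.00523). LASP1, a LIM and SH3 protein of macrophage podosomes, had 14.2 and 18.9 TPM in differentiated libraries, against 5.00 and 3.51 TPM in undifferentiated libraries (1.74 ± 0.39, adjusted p = 0.00284).

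VCL (ENSG00000035403), vinculin, which couples talin to actin, was the member that fell furthest. It had 0.57 and 0.79 TPM in differentiated libraries, against 13.6 and 9.28 TPM in undifferentiated libraries. The mean was 16.9-fold lower in differentiated cells, and the log2 difference was -2.87 ± 0.39 (adjusted p = 7.85e-05). The ratio of VCL to TLN1, which scaling does not touch, was 0.0258 and 0.0303 in differentiated libraries, against 1.49 and 1.57 in undifferentiated libraries. VCL lay lower and TLN1 higher without overlap, so the stages had to separate in this ratio, which was not planned. The rank of VCL among protein-coding genes was 9530 and 8898 in differentiated libraries, against 1787 and 1623 in undifferentiated libraries. Leaving out differentiated replicate 1 or 2 gave an adjusted p of 0.0641 and 0.0548 for VCL, 0.123 and 0.0957 for PXN, 0.169 and 0.23 for TLN1, and 0.134 and 0.22 for LASP1.

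**Figure D4:**
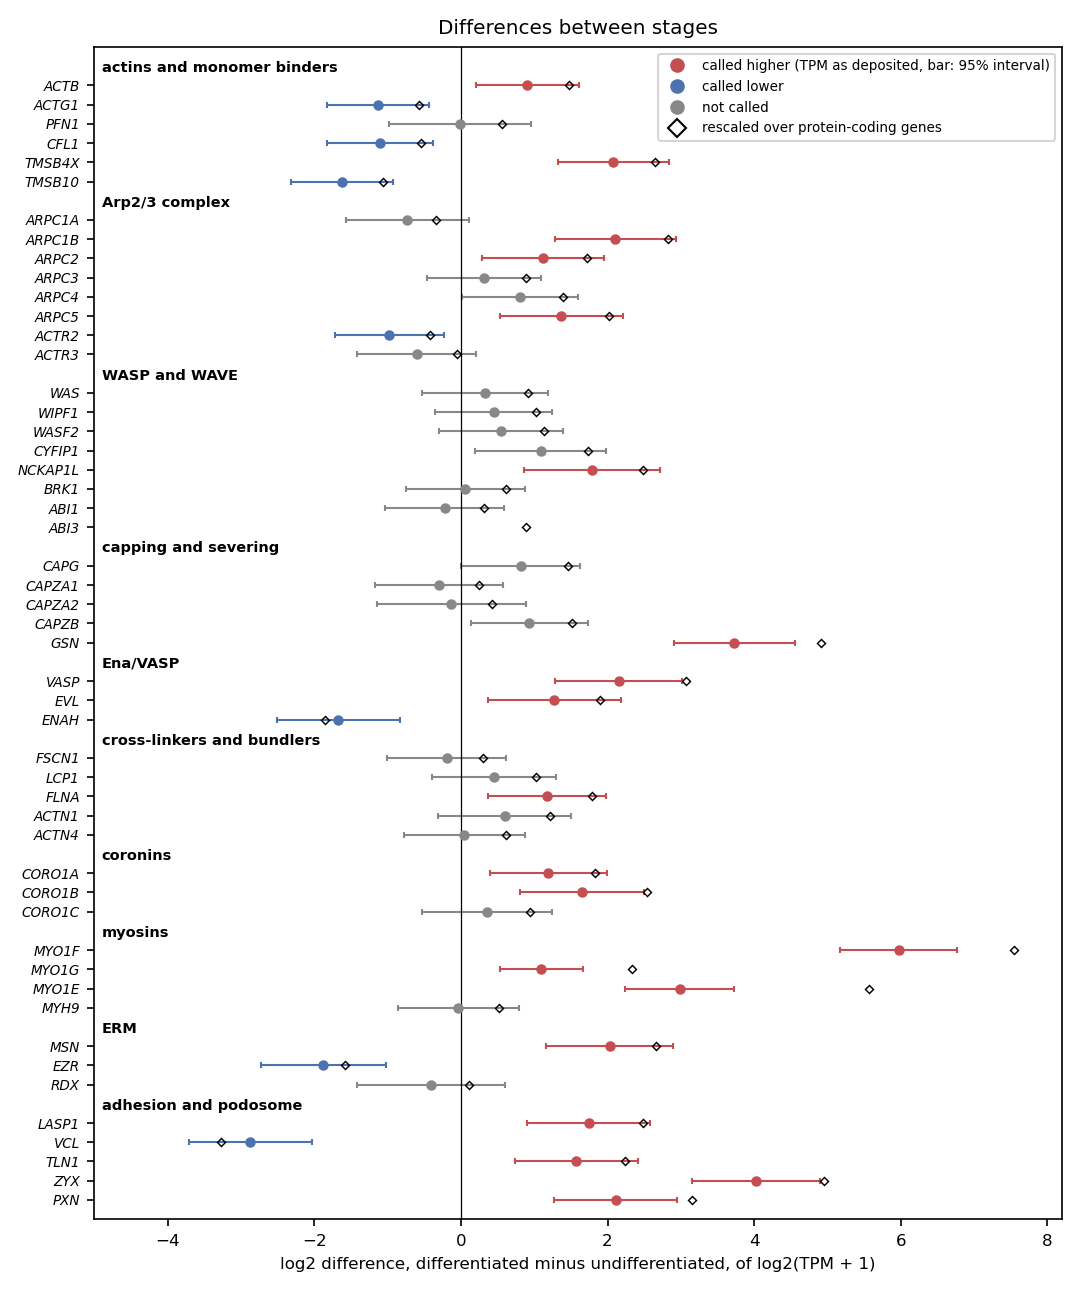
Log2 difference, differentiated minus undifferentiated, of log2(TPM + 1) for each member with its 95% interval from limma (red: called higher, blue: called lower, grey: not called), and the same difference after rescaling over protein-coding genes (open diamonds, no interval drawn). Rescaling moves most genes to the right. VCL and ENAH stay lowest at -3.27 and -1.85, and EZR, TMSB10, ACTG1 and CFL1 are also still called lower, 6 members in all. ABI3 has a diamond alone because it lay below the filter as deposited.

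The wider actin machinery was read from a list of 111 other regulators that does not share a gene with the members. Of the 93 tested, 28 rose, 19 fell and 46 were not called, with a median log2 difference of 0.15. The same counts as shares of the tested genes were 30.1% and 20.4%, beside 18.6% and 22.8% of all genes tested. Of the tested regulators 11 reached 1 TPM in the differentiated libraries alone and 7 in the undifferentiated libraries alone, and could pass the filter only by differing. All 11 were called higher, and 6 of the 7 lower; of the other 75 regulators 17 (22.7%) were called higher and 13 (17.3%) lower. After rescaling over protein-coding genes 50 were called higher and 17 lower of 101 tested, beside 34.3% and 18.0% of all genes then tested.

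On the log2(TPM + 1) scale the largest rises were those of AIF1, COTL1, FMNL1 and LSP1; after rescaling over protein-coding genes LSP1 (5.72), DOCK8 (4.56), LPXN (4.42) and FMNL3 (4.25) had larger differences than FMNL1 (3.98). AIF1, a macrophage actin-bundling protein, had 45.7 and 48.0 TPM in differentiated libraries, against 0.88 and 0.47 TPM in undifferentiated libraries (log2 difference 4.85). COTL1, a cofilin-like filament binder, had 40.4 and 47.6 TPM in differentiated libraries, against 0.95 and 0.87 TPM in undifferentiated libraries (4.55). FMNL1, a formin of leukocytes that lengthens unbranched filaments, had 27.8 and 28.5 TPM in differentiated libraries, against 2.69 and 2.25 TPM in undifferentiated libraries (3.07). LSP1, a leukocyte filament binder known from podosomes, had 5.52 and 10.5 TPM in differentiated libraries and was listed at 0.07 and 0 TPM in undifferentiated libraries (3.06).

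On the same scale the largest falls were those of PLS3, CYFIP2, SPTBN1 and CALD1; after rescaling over protein-coding genes PFN2 (-4.34) and MYH10 (-3.62), among others, had larger ones than CYFIP2 (-3.56) and CALD1 (-3.31). PLS3, the T-plastin paralog of LCP1, had 2.71 and 4.80 TPM in differentiated libraries, against 143 and 56.6 TPM in undifferentiated libraries (log2 difference -4.30). CYFIP2, the paralog of CYFIP1 in the WAVE complex, had 3.01 and 3.03 TPM in differentiated libraries, against 51.3 and 57.9 TPM in undifferentiated libraries (-3.79). SPTBN1, a β-spectrin of the membrane skeleton, had 0.99 and 1.07 TPM in differentiated libraries, against 34.6 and 17.5 TPM in undifferentiated libraries (-3.66). CALD1, the filament binder caldesmon, had 1.34 and 2.20 TPM in differentiated libraries, against 30.3 and 23.8 TPM in undifferentiated libraries (-3.35). AIF1, COTL1, FMNL1, LSP1, PLS3, CYFIP2, SPTBN1 and CALD1 kept their call in each fit that left out a library. These genes were named for the size of their differences in the same libraries, so the kept calls are no further support. AIF1, COTL1 and LSP1 are also among the regulators that reached 1 TPM in the differentiated libraries alone.

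Several members that were not called have a paralog in this list that fell, and their shares were computed after these values had been seen. CYFIP1 made up 84.9% and 85.3% of the TPM of both CYFIP genes in differentiated libraries, against 17.7% and 8.14% in undifferentiated libraries. LCP1 made up 93.4% and 89.9% of the TPM of both plastins in differentiated libraries, against 21.5% and 27.6% in undifferentiated libraries. WASF2 made up 87.7% and 94.5% of its sum with WASF1 in differentiated libraries, against 50.2% and 56.7% in undifferentiated libraries. WASF1, a neuronal WAVE gene, had 2.90 and 1.38 TPM in differentiated libraries, against 19.3 and 8.65 TPM in undifferentiated libraries (log2 difference -2.20, limma adjusted p = 0.00169, but 0.1 and 0.193 without differentiated replicate 1 or 2). In these 3 sets the share of the member was larger after differentiation, while its own TPM was not called.

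MYH10, the non-muscle myosin IIB heavy chain, had 0.50 and 0.39 TPM in differentiated libraries, against 14.1 and 7.35 TPM in undifferentiated libraries (-2.96, limma adjusted p = 8.43e-05, but 0.064 and 0.0686 without differentiated replicate 1 or 2). MYH9 made up 98.1% and 98.8% of its sum with MYH10 in differentiated libraries, against 72.7% and 76.5% in undifferentiated libraries. ARPC5, which was itself called higher, made up 92.6% and 94.1% of its sum with ARPC5L in differentiated libraries, against 57.4% and 58.4% in undifferentiated libraries. The CFL1 share of the cofilin trio overlapped, with 94.4% and 93.7% of their summed TPM in differentiated libraries, against 93.8% and 95.2% in undifferentiated libraries. The share of TLN1 in its sum with TLN2 was smaller after differentiation, at 95.1% and 96.1% against 98.0% and 97.5% in undifferentiated libraries.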

How the data were processed

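Gene expression was measured by sequencing of total RNA in 2 differentiated and 2 undifferentiated libraries of BLaER1. The deposited values are TPM, made by the authors; Trimmomatic, STAR and RSEM are named in the submitters' processing notes, without versions. Build and annotation: not given in the sources used here. RSEM splits reads among near-identical copies, so values of the actins, thymosins and other genes with pseudogenes are uncertain. Libraries were grouped by their titles. Genes that reached 1 TPM in 2 or more libraries were compared on log2(TPM + 1) with limma 3.58.1 in R 4.3.3 (moderated variances with a mean-variance trend, two-sided, 2 residual and 10.9 prior degrees of freedom), and p was adjusted over all 10180 genes. Gene types came from GENCODE release 29, in which 58039 of 58302 IDs were found, and promoters from RefSeq. The procedure was tested on simulated data with few changed genes and no shift in library composition. That setting differs from these libraries, so it cannot show how such shifts affect the calls. Members, roles and lists were chosen with earlier results of these data known. Every member is reported, with full statistics for the largest called rise and fall of each role and for paralogs that moved apart, and the 4 largest rises and falls of the other regulators are named. Alternatives were other scalings, pseudocounts, filters and tests, a replicate block, and each library left out.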

Additional observations from a re-analysis of the deposited data

How the results depend on the processing

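The counts of calls moved with the libraries used, the filter and the scaling. With 1 library left out in turn (the lone library of a stage assumed to vary like the other stage), all genes called ranged from 1271 to 5652, members higher from 5 to 26 and lower from 0 to 11, other regulators higher from 12 to 38 and lower from 4 to 28, and the members' median log2 difference from 0.19 to 0.89. In the limma fits with 0 members called lower, without differentiated replicate 1 or 2, 3 and 5 members were lower at an unadjusted p below 0.05. Without a filter on low values 1260 genes, 6 members higher and 2 lower, and 13 other regulators higher and 6 lower were called. Against a log2 fold change of 1 these counts were 1305, 6, 1, 14 and 7. With at least 5 TPM, 2436 genes and 11 other regulators lower were called. Rescaling over protein-coding genes gave 32 members and 50 other regulators higher, and a members' median of 1.17, and quantile normalization a median of 0.95. The cause of these shifts was not tested. The replicate numbers share no stated source, and their deviations did not correlate (r = -0.0237); with the number as a replicate block 3766 genes were called, with 16 members higher and 5 lower and 25 other regulators higher and 16 lower. TPM keeps no depth, so limits of detection are unknown.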
